A study of Mus musculus with 2 samples.

Results

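Chemokines are small secreted proteins that draw leukocytes along a gradient by binding receptors of the G protein-coupled family on the cell surface. A set of 38 mouse genes was examined here, made up of 29 chemokine ligands and 9 chemokine receptors. They were chosen by name: a gene was taken when a non-control probe carried its symbol in the gene name column of both deposited scanner files. All 38 were found by their own symbol, with 48 of the 39429 non-control probes and among 22803 named genes. In the set, 31 genes had 1 probe and 7 had several.

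Liver RNA of C57BL/6 background mice was hybridised to 2 Agilent 2-colour whole-genome arrays, 1 for the wild-type and 1 for the AID transgenic genotype. On each array, Cy5 marked liver RNA of a mouse given thioacetamide, a compound toxic to hepatocytes, in its drinking water for 6 months, and Cy3 marked untreated liver RNA of the same genotype. The design asks how the treatment changed liver expression in each genotype. Each genotype had 1 array and dyes were not swapped, so no p-value could be given and a dye effect cannot be told apart from the treatment. The age and sex of the mice, the promoter that drives the transgene, and whether a channel held 1 animal or a pool are not stated in the labels used here.

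Homeostatic chemokines, such as the CCR7 ligands and Cxcl13, place lymphocytes in lymphoid tissue, while inflammatory chemokines are made on demand by hepatocytes, Kupffer cells, endothelium and stellate cells. In the injured liver, Ccl2 is known for the entry of monocytes, Cxcl1 and its relatives for that of neutrophils, and the interferon-induced ligands of CXCR3 for that of T and NK cells.

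Every spot gave a Cy5 over Cy3 log2 ratio, so a value above 0 means higher in the treated liver. The ± after a ratio is the scanner software's error of the spot, which is technical and holds no spread between animals. Levels are normalized log2 intensities of 1 channel, and single genes are compared only within a gene. A summed level of a marker list adds the linear intensities of different probes, so bright probes weigh most in it. A channel value is called measured when the scanner software marked the spot well above background. In Cy3, 56% (wild-type) and 53.9% (AID transgenic) of non-control spots passed that mark, and in Cy5 68.4% and 68.8% did. Genes were counted when they differed at least 2-fold, a fixed rule of size and not a test.

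Both arrays read as liver, since all 6 hepatocyte markers were well above background in every channel. The wild-type array was uneven in sex-linked transcripts. Xist was at least 6.18-fold higher, and the Y-linked Ddx3y and Eif2s3y at least 17.6-fold and 32.1-fold lower, in its treated channel than in its untreated one. On the AID transgenic array the ratios of Ddx3y and Eif2s3y were -0.11 ± 0.20 and -0.05 ± 0.20. Between the untreated channels they differed by 0.10 and -0.06. Treated wild-type liver was the only channel with Xist, and the only one without Ddx3y and Eif2s3y, well above background. The wild-type treatment ratio, the difference between the arrays and the genotype comparison of treated livers below all hold that uneven channel. In these a difference of sex cannot be told apart from treatment or genotype, and its part was not tested.

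The upstream sequences of 4 genes are shown because their transcripts carry differences of at least 2-fold below in the CXCR3 ligands (Cxcl10, Cxcl9), in a neutrophil chemokine (Cxcl1) and between genotypes (Cxcl13). Each line is the 250 bases before the annotated gene start, from RefSeq on build GRCm38.p6, written 5′ to 3′ on the gene's strand. Capitals mark matches to 3 motifs searched on both strands: the interferon-stimulated response element core GAAANNGAA, the gamma-activated site core TTCNNNGAA and the NF-kB site core GGANNTTCC.
Cxcl10 promoter (chr5:92348890-92349139, - strand): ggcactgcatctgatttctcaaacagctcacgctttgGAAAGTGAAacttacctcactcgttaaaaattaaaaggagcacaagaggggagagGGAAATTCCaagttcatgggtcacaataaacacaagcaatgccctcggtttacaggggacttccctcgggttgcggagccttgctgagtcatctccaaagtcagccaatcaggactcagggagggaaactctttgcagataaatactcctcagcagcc
Cxcl9 promoter (chr5:92328080-92328329, - strand): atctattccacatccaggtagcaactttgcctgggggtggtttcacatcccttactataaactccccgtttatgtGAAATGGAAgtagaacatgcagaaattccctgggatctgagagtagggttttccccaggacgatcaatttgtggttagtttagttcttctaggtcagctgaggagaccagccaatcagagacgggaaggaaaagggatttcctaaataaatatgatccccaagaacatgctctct
Cxcl1 promoter (chr5:90890995-90891244, + strand): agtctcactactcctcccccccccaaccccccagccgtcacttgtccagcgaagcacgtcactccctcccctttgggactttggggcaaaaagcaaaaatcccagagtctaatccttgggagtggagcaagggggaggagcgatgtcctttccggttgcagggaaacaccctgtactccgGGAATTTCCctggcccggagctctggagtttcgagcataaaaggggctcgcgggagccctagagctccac
Cxcl13 promoter (chr5:95956689-95956938, + strand): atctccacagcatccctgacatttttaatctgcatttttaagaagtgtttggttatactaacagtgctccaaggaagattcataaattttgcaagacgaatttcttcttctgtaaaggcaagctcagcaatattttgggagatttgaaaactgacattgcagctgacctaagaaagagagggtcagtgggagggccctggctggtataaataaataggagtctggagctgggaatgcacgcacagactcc

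RefSeq promoters matched 27 of the 38 genes, with 31 windows in all. The interferon-stimulated response element core was in the windows of Ccl3, Ccl19, Cxcl9, Cxcl10, Cxcl14 and Ccr2, in 6 of the 31 windows or 19.4%, against 7.13% of 32851 promoters of the same length. The NF-kB core was in those of Ccl12, Cxcl1, Cxcl2 and Cxcl10, 12.9% against 3.59%. The gamma-activated site core was in those of Ccl17, Ccr6 and Cxcl14, 9.68% against 7.02%. In Cxcl10 the interferon element began 213 bases and the NF-kB core 158 bases before the gene start. In Cxcl9 the interferon element began 175 bases, and in Cxcl1 the NF-kB core 70 bases, before the start. No motifs overlapped in these windows. That of Cxcl13 held none of the 3, which says only that these letters are not in its 250 bases. A match is a string of letters and was not tested for binding.

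More chemokine transcripts were detected in the treated than in the untreated channels. Of the 38 genes, 22 were well above background in untreated wild-type liver, 30 in treated wild-type liver, 23 in untreated AID transgenic liver and 32 in treated AID transgenic liver. The same shift was seen over all genes, at 61.7%, 72.9%, 60.0% and 73.1%, and the Cy5 dye and the treatment cannot be told apart as its source. Among the 9 receptors, 4 were detected in each untreated channel and 8 in each treated one. In all 4 channels 22 genes were measured, and the normalized levels of these spanned 6.49 to 14.24. The upper end is a mean of 2 Cxcl11 probes that differed widely in level. A further 8 were measured in 2 channels, 3 in 1 channel and 5 in none. No chemokine spot was saturated.

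In wild-type liver, Cxcl10 and Ccl2 were at least 2-fold higher after treatment and no chemokine gene was 2-fold lower. These are 2 of 30 genes measured in at least 1 channel (6.67%), beside 1.86% of all 16663 measured genes higher and 1.64% lower. In AID transgenic liver Ccl2, Ccl5, Ccl24, Cxcl1, Cxcl9 and Cxcl10 passed the rule as higher, which is 6 of 32 (18.8%). All genes gave 1.22% higher there. Ccl21a was the only 1 of the 32 to be 2-fold lower, beside 0.947% of all 16693 genes. Every gene counted here was measured in all 4 channels. The median log2 ratio of the measured chemokine genes was 0.26 in wild-type and 0.17 in AID transgenic liver, and that of all genes 0.03 on both arrays. Genes measured only in a treated channel could hardly appear as lower, so these medians describe the measured genes and support nothing. With the scanner software's own processed signals the higher counts were 10 and 14 genes, with 0 and 2 lower. These counts include genes measured in a treated channel alone, such as Ccl4, Ccl7 and Ccr2. The share of all genes under that processing is not given, so the larger counts cannot be read as particular to chemokines.

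The treatment ratios of the 2 arrays differed at least 2-fold for 5 of 33 measured genes. Ccl5, Cxcl1, Ccl24 and Ccl6 had the higher ratio in AID transgenic liver, beside 0.929% of all 17107 genes, and Ccl21a the lower, beside 1.05%. Processing moved this split: 5 genes higher and 3 lower with no offset in the background correction, and 5 and 4 with the processed signals. The shares of all genes under these settings are not given. Of the 22 genes measured in all 4 channels, 14 had ratios above 0 on both arrays, 3 below 0 on both, and 5 opposite directions. Of all measured genes, 9115 of 16663 were above 0 on the wild-type array and 9111 of 16693 on the AID transgenic array. The share of all genes above 0 on both is not given, so the count of 14 cannot be read as particular to chemokines. The plot of treatment ratios sets the 22 genes side by side.

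**Figure D1:**
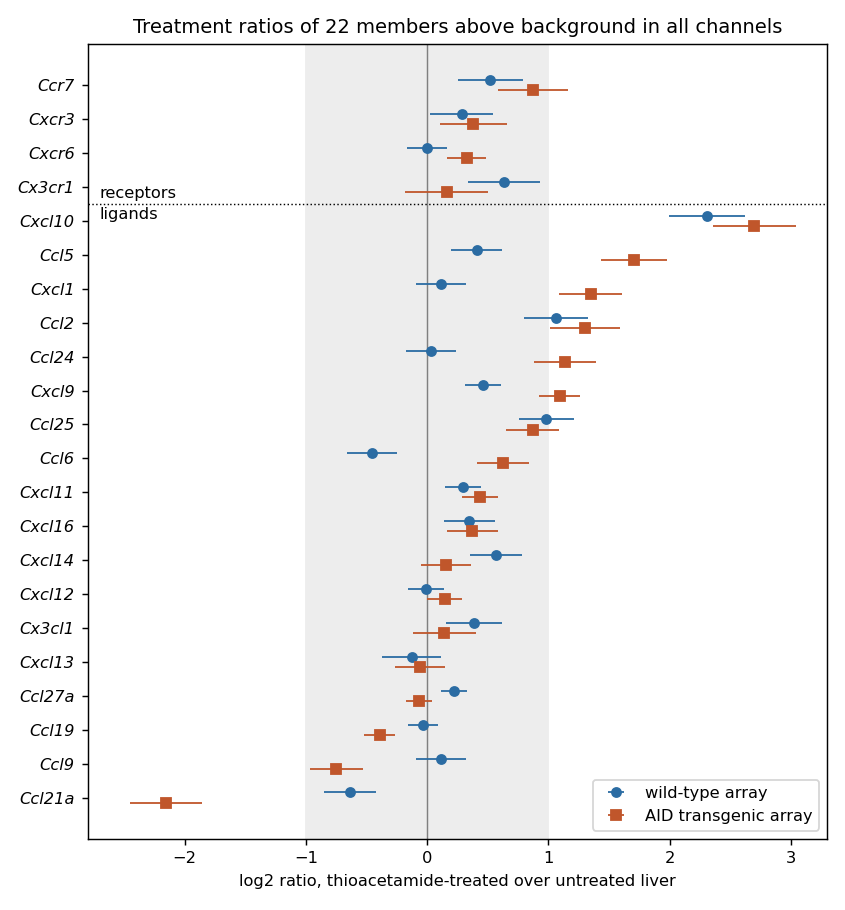
Treatment log2 ratios (x axis, thioacetamide-treated over untreated liver) of the 22 chemokine genes measured in all 4 channels, receptors above and ligands below the dotted line. Circles are the wild-type array, squares the AID transgenic array, bars the scanner software's spot error, and the grey band is under 2-fold. Cxcl10 lies farthest right on both arrays (2.31 and 2.70), and Ccl21a farthest left (-0.64 and -2.15).

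The ligands of CXCR3, a receptor on activated T and NK cells, were led by Cxcl10, an interferon-induced chemokine. The log2 level of Cxcl10 was 8.20 in untreated and 10.51 in treated wild-type liver, and 8.63 in untreated and 11.33 in treated AID transgenic liver. Both treated channels lay above both untreated ones. Its treatment ratio was 2.31 ± 0.32 in wild-type (4.94-fold) and 2.70 ± 0.34 in AID transgenic liver (6.49-fold). The difference between these ratios, 0.39 ± 0.47, was smaller than its spot error. The single probe of Cxcl10 maps to chr5:92775781-92775840 on the minus strand of mm9, the build of the files.

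Cxcl9, the second ligand, is induced mainly by interferon gamma. The log2 level of Cxcl9 was 8.16 and 8.62 in untreated and treated wild-type liver, and 8.18 and 9.27 in AID transgenic liver. The untreated livers were alike, and treated AID transgenic liver was highest. The ratio of Cxcl9 was 0.46 ± 0.15 in wild-type and 1.09 ± 0.17 in AID transgenic liver, a difference of 0.63 ± 0.23. Its 2 probes gave 1.22 and 0.97 on the AID transgenic array, so 1 of them was just under 2-fold alone.

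Cxcl11, the third ligand, encodes no functional protein in C57BL/6 mice, which are known to carry a frameshift in the gene. The log2 level of Cxcl11, a mean over 2 probes, was 13.81 and 14.11 in wild-type and 13.81 and 14.24 in AID transgenic liver. The probes lay far apart, at 11.36 and 16.27 in untreated wild-type liver, so the mean is the level of neither. Their ratios were 0.13 and 0.47 in wild-type and 0.24 and 0.62 in AID transgenic liver. By the mean, treated channels were slightly higher, with ratios of 0.30 ± 0.15 and 0.43 ± 0.15. The receptor gene Cxcr3, on the X chromosome, had log2 levels of 6.70 and 6.99 in wild-type and 6.87 and 7.25 in AID transgenic liver. Its ratios, 0.29 ± 0.26 and 0.38 ± 0.27, were little larger than the spot error. Without loess, by centring each array on its median, Cxcl11 reached 1.07 and 1.18. That centring also raised the median of all genes on both arrays, so these values are not particular to Cxcl11. Cxcr3 was at 1.03 in AID transgenic liver with the processed signals.

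Genes of the interferon gamma axis, which turns on the CXCR3 ligands, moved less than Cxcl10. None of 11 measured genes of this list was 2-fold higher or lower in wild-type liver (median 0.14), and Cd274, which encodes the checkpoint ligand PD-L1, was the only 1 of 12 in AID transgenic liver, at 1.02 ± 0.36 (median 0.38). Gbp2, an interferon-induced GTPase, was at 0.52 ± 0.21 and 0.98 ± 0.23. Of the T cell markers none of 10 measured genes was 2-fold changed in wild-type liver (median -0.04) and none of 11 in AID transgenic liver (median 0.18). Their summed level was 3874 and 3279 in untreated and treated wild-type liver, and 4511 and 3924 in AID transgenic liver. The bright probes of Cd3e and Cd4 set this sum, with 41.6% and 29.6% of it in untreated wild-type liver. In whole liver, fewer cells of a type and less RNA per cell cannot be told apart. The 7 NK cell markers summed to 1008 and 1043 in wild-type and to 1114 and 1338 in AID transgenic liver, with Ncr1 not above background. Their part in the results on CXCR3 ligands was not tested.

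Among the chemokines that draw monocytes through CCR2, Ccl2 was higher after treatment in both genotypes. The log2 level of Ccl2 was 7.07 in untreated and 8.13 in treated wild-type liver, and 7.13 and 8.43 in AID transgenic liver. The untreated livers were alike and both treated livers were higher. The ratios of Ccl2 were 1.06 ± 0.26 (2.09-fold) and 1.30 ± 0.29 (2.47-fold), and they differed by 0.24 ± 0.39. The Ccl2 probe, at chr11:81850650-81850709 on the plus strand of mm9, was printed in 10 spots on each array, whose ratios had an SD of 0.13 and 0.15. The processed signals gave 1.68 and 2.09 for Ccl2.

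The other chemokines of the monocyte group were dim. Ccl7, which also binds CCR2, was measured in both treated channels alone and was at least 1.07-fold higher after treatment in wild-type liver. A bound of this kind sets the bright channel against the higher of 2 values in the dim one, the lowest signal that counted as above background and the dim probe's own signal. It leaves out the spot error, and where the dim probe's own signal was the higher it is the plain ratio. The wild-type ratio of Ccl7, 0.40 ± 0.77, was within the spot error. Ccl8, which in mouse acts through CCR8, was measured in AID transgenic liver alone, at 6.89 untreated and 6.49 treated. It was at least 1.53-fold higher than in wild-type liver without treatment and at least 1.32-fold higher with it. Ccl12, a mouse CCR2 ligand, was measured in treated AID transgenic liver alone, at 6.35. The receptor Ccr2 was measured in both treated livers, at 6.48 and 6.66, at least 1.15-fold and 1.13-fold above untreated. Its ratios, 0.23 ± 0.61 and 0.17 ± 0.44, were within the spot error.

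The 7 monocyte and macrophage markers on the array had no member 2-fold changed by treatment in either genotype, with medians of -0.03 and 0.21. Their summed level was 2905 and 2813 in wild-type liver and 2963 and 4393 in AID transgenic liver. Ccl2 was higher in both treated livers and this sum in treated AID transgenic liver alone, but from 35.7% to 37.5% of each sum was Csf1r. Adgre1 had the highest ratio in AID transgenic liver, at 0.995 ± 0.16, just under the 2-fold rule, and Cd68 the lowest, at -0.00 ± 0.29. The part of these cells in the Ccl2 result was not tested.

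Ccl5, made by T cells, NK cells and macrophages and bound by CCR1, had a higher treatment ratio in AID transgenic than in wild-type liver. The log2 level of Ccl5 was 8.39 in untreated and 8.80 in treated wild-type liver, and 8.57 in untreated and 10.27 in treated AID transgenic liver. Treated AID transgenic liver stood above the other 3 channels. The ratio of Ccl5 was 0.41 ± 0.21 in wild-type and 1.70 ± 0.27 in AID transgenic liver (3.26-fold), a difference of 1.29 ± 0.34. Between genotypes Ccl5 differed by 0.18 in untreated and by 1.48 in treated livers. The probe of Ccl5 maps to chr11:83339296-83339355 on the minus strand of mm9.

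Ccl4, an inflammatory chemokine of macrophages and T cells, was measured in treated livers alone, at 6.95 in wild-type and 7.30 in AID transgenic. It was at least 1.60-fold and 1.92-fold higher than in untreated liver, with ratios of 0.71 ± 0.48 and 0.94 ± 0.51. Ccl3, which binds CCR1, was at 6.67 and 6.75 in the treated livers, 1.19-fold and 1.10-fold above its dim signal in untreated liver. Ccl3, Ccl4 and Ccl5 were each at their highest level in treated AID transgenic liver. For Ccl3 the ratios, 0.25 ± 0.40 and 0.14 ± 0.35, were within the spot error. None of the 6 NK cell markers measured on the wild-type array and of the 5 on the AID transgenic array was 2-fold changed by treatment, with medians of 0.06 and 0.29. The part of such cells in the Ccl5 result was not tested.

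**Figure D2:**
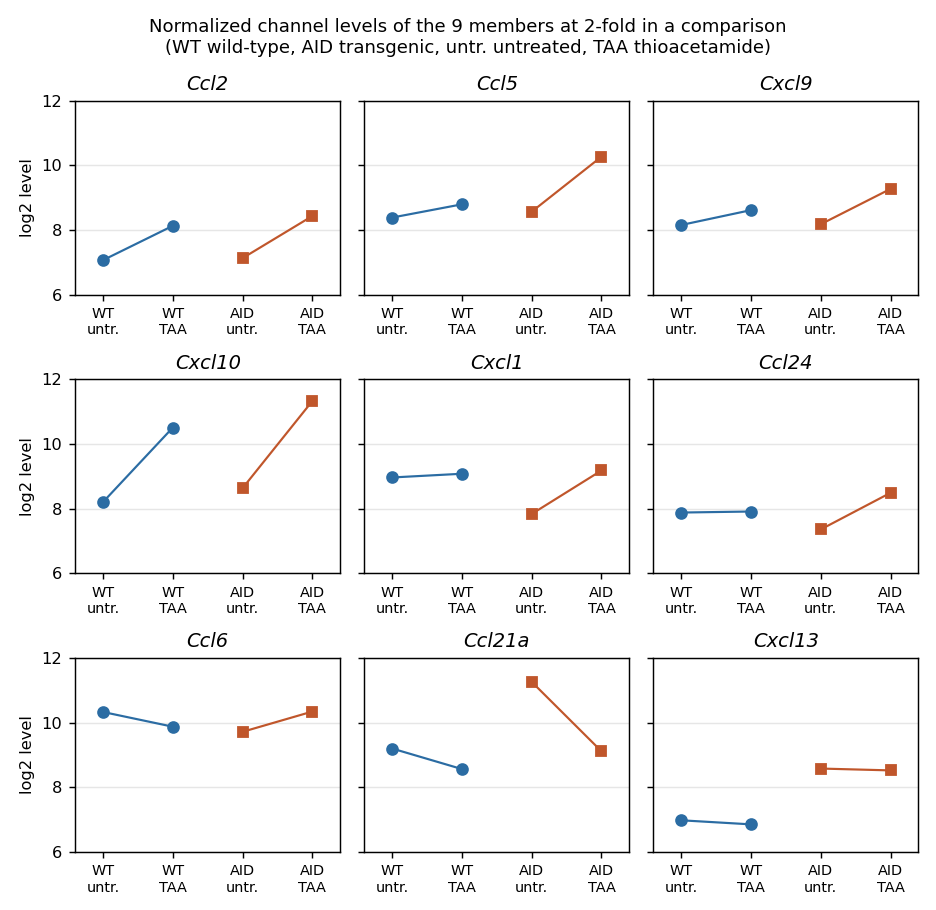
Normalized log2 level (y axis) of the 9 chemokine genes that were at least 2-fold in a comparison, in untreated and thioacetamide-treated (TAA) liver of wild-type (WT, circles) and AID transgenic (squares) mice, 1 channel value each. Cxcl10 and Ccl2 climb in both genotypes, Ccl5 climbs to 10.27 in AID transgenic liver, and Cxcl13 lies at 8.57 and 8.52 in the AID transgenic channels and at 6.97 and 6.85 in the wild-type ones.

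Cxcl1, a neutrophil chemokine and ligand of CXCR2, differed between genotypes before treatment. Its log2 level was 8.96 in untreated and 9.08 in treated wild-type liver, and 7.83 in untreated and 9.18 in treated AID transgenic liver. Untreated AID transgenic liver was low, and the other 3 channels lay between 8.96 and 9.18. The ratio of Cxcl1 was 0.11 ± 0.20 in wild-type and 1.35 ± 0.26 in AID transgenic liver (2.54-fold), a difference of 1.23 ± 0.33. In untreated liver Cxcl1 was 1.13 lower in AID transgenic than in wild-type, and in treated liver it differed by 0.10. The gap between the ratios was thus a gap between the untreated livers.

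Of the other CXCR2 ligands, Cxcl5 was measured in treated AID transgenic liver alone, at 6.44, and was at least 1.10-fold higher than untreated and 1.19-fold higher than treated wild-type liver. The AID transgenic ratio of Cxcl5, 0.70 ± 0.84, was within the spot error. Cxcl2 was not well above background in any channel, with ratios of 0.11 ± 2.08 and 0.23 ± 1.30. Cxcl2 shares the NF-kB core GGAATTTCC with Cxcl1, 96 bases before its start. In the list of NF-kB and cytokine inducers, Il1b, which encodes the cytokine interleukin 1 beta, had ratios of -0.57 ± 0.23 and 2.30 ± 0.37. It was the only 1 of 15 at 2-fold in AID transgenic liver (median 0.20), and none of 14 was in wild-type (median 0.16). The 7 neutrophil markers had medians of -0.08 and 0.29, with Mpo not above background. They summed to 26315 and 31347 in wild-type and to 24413 and 35422 in AID transgenic liver, but from 88.5% to 90.8% of each sum was Csf3r, a growth factor receptor gene with a bright probe. S100a9, a calgranulin of neutrophils, was the only one 2-fold higher, at 1.60 ± 0.27 in AID transgenic liver against -0.51 ± 0.22 in wild-type. Ly6g went the other way and was the lowest of this list in AID transgenic liver, at -0.22 ± 0.21 against 0.22 ± 0.21. The part of neutrophils in the Cxcl1 result was not tested.

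Ccl24, an eotaxin made by macrophages that draws eosinophils through CCR3, differed between the genotypes in opposite directions without and with treatment. Ccl24 had a log2 level of 7.88 and 7.91 in wild-type liver and 7.35 and 8.49 in AID transgenic liver. The wild-type livers lay between the untreated and the treated AID transgenic liver. Its ratio was 0.03 ± 0.21 in wild-type and 1.13 ± 0.25 in AID transgenic liver (2.19-fold), a difference of 1.10 ± 0.33. By genotype Ccl24 was 0.52 lower in untreated and 0.58 higher in treated AID transgenic liver. The second eotaxin of the set, Ccl11, was not well above background in any channel.

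Ccl6 and Ccl9, myeloid chemokines of rodents that bind CCR1, moved in opposite directions. For Ccl6 the log2 level was 10.33 in untreated and 9.87 in treated wild-type liver, and 9.71 and 10.34 in AID transgenic liver. The ratio of Ccl6 was -0.46 ± 0.21 in wild-type and 0.63 ± 0.21 in AID transgenic liver, a difference of 1.08 ± 0.30. Neither ratio reached 2-fold. Centring on the median, which also raised the median of all genes, put the wild-type one at 0.21, and the processed signals put it at -0.52.

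Ccl9 had a log2 level of 12.04 and 12.16 in wild-type liver and 12.29 and 11.54 in AID transgenic liver. Treated AID transgenic liver was lowest for Ccl9, where Ccl6 was highest. Its ratios were 0.11 ± 0.20 and -0.75 ± 0.22, a difference of -0.86 ± 0.30. Their receptor gene Ccr1 was not well above background in any channel.

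Kupffer cell markers, genes of the resident macrophages of the liver, moved beside these myeloid chemokines. None of the 8 was 2-fold changed in wild-type liver (median 0.08), and Clec4f, Vsig4 and Cd5l were higher in AID transgenic liver (median 0.90). Their summed level was 16336 and 19329 in wild-type liver and 21244 and 42492 in AID transgenic liver. The scavenger receptor gene Marco carried the gap between the untreated livers. It was 2.54 higher in untreated and 2.42 higher in treated AID transgenic than in wild-type liver, with treatment ratios of 0.76 ± 0.22 and 0.65 ± 0.21. The sum was highest in the channel where Ccl24 was highest and Ccl9 lowest. The part of Kupffer cells in these results was not tested.

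Ccl25, known for guiding T cells of thymus and gut through CCR9, gave nearly the same values on both arrays. For Ccl25 the log2 level was 9.80 in untreated and 10.78 in treated wild-type liver, and 9.85 and 10.72 in AID transgenic liver. Both treated livers were higher than both untreated ones. The ratios of Ccl25 were 0.98 ± 0.22 (1.98-fold) and 0.87 ± 0.22 (1.83-fold), just under the 2-fold rule, and differed by -0.11. With no offset in the background correction the wild-type ratio was 1.01. With median centring, which also raised the median of all genes, the ratios were 1.66 and 1.54.

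Ccl21a, a ligand of CCR7 made by lymphatic endothelium and lymphoid stroma, stood apart in untreated AID transgenic liver. Ccl21a had a log2 level of 9.19 in untreated and 8.56 in treated wild-type liver, and 11.26 in untreated and 9.11 in treated AID transgenic liver. The other 3 channels lay below it. The treatment ratio of Ccl21a was -0.64 ± 0.22 in wild-type and -2.15 ± 0.30 in AID transgenic liver (4.44-fold lower), a difference of -1.51 ± 0.37. Between genotypes it was 2.06 higher in untreated AID transgenic liver (4.18-fold), and 0.55 higher in treated liver. Centring on the median, which also raised the median of all genes, gave -0.04 and -1.49 for the treatment ratios.

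Mouse chromosome 4 carries near-identical copies of Ccl21, and the array has a separate probe named Ccl21b. The probe of Ccl21a maps to chr4:42232117-42232176 on the plus strand of mm9. Over 56 aligned bases the 2 probes are identical at 54, and each lists the transcript of the other gene among its targets. A stretch of 30 bases is shown from each, with the differing base in capitals, to show how little tells these copies apart. The difference is G20A, counted from 1 at the 5′ end of the stretch, Ccl21a base first.
Ccl21a probe bases 27 to 56: atacctaactgaataaaaaGgtgatccagc
Ccl21b probe bases 31 to 60: atacctaactgaataaaaaAgtgatccagc

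The Ccl21b probe gave a different pattern. Its log2 level was 12.42 and 12.03 in wild-type liver and 12.68 and 12.05 in AID transgenic liver. Its treatment ratios were -0.39 ± 0.21 and -0.63 ± 0.21, and its genotype differences 0.26 in untreated and 0.02 in treated liver. Both probes were lower after treatment on both arrays, but the Ccl21b probe was under 2-fold in every comparison. Which copy each signal belongs to cannot be told apart with these probes, and the Ccl21a values are uncertain for that reason.

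Ccl19, the second CCR7 ligand, lies in the same duplicated stretch of chromosome 4. The mean log2 level of its 3 probes was 7.65 and 7.62 in wild-type liver and 7.90 and 7.51 in AID transgenic liver. Its ratios were -0.03 ± 0.12 and -0.39 ± 0.13, with an SD of 0.06 and 0.09 between probes. As for Ccl21a, untreated AID transgenic liver was the high channel, by a far smaller amount. The 3 lymphatic endothelial markers summed to 465 and 513 in wild-type liver and to 414 and 579 in AID transgenic liver. Their sum was lowest in the channel where Ccl21a was highest, but from 50.1% to 68.6% of each sum was Prox1. Between the untreated livers, AID transgenic over wild-type, Prox1 differed by -0.39, Pdpn by 0.23 and Flt4 by 0.01. None of the 3 was 2-fold changed by treatment, and the part of lymphatic endothelium in the Ccl21a result was not tested.

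The receptor gene Ccr7, of naive T cells and mature dendritic cells, ran the other way. For Ccr7 the log2 level was 6.64 and 7.16 in wild-type liver and 6.72 and 7.59 in AID transgenic liver. Both treated livers were higher, at ratios of 0.52 ± 0.27 and 0.87 ± 0.29. The processed signals put these above 2-fold, at 1.06 and 1.73. The 6 dendritic cell markers summed to 2206 and 2620 in wild-type and to 2238 and 2644 in AID transgenic liver, higher in both treated livers. However, from 76.7% to 77.8% of each sum was Siglech, a gene with a bright probe. The median ratio of the 6 was 0.18 on both arrays. Itgax was highest, at 0.71 on both, and Zbtb46 lowest, at -0.11 and -0.10. The part of dendritic cells in the Ccr7 values was not tested.

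Cxcl13, the chemokine that gathers B cells into follicles through CXCR5, separated the genotypes and not the treatments. Cxcl13 had a log2 level of 6.97 in untreated and 6.85 in treated wild-type liver, and 8.57 in untreated and 8.52 in treated AID transgenic liver. Both AID transgenic channels lay above both wild-type channels. Cxcl13 was 1.60 higher in untreated (3.03-fold) and 1.67 higher in treated AID transgenic liver (3.18-fold). Its treatment ratios were -0.13 ± 0.24 and -0.06 ± 0.21. The processed signals gave 2.31 and 2.52 for the genotype differences, and its probe maps to chr5:96389861-96389920 on the plus strand of mm9.

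Of the chemokine genes, 2 of 23 measured in untreated liver (8.7%) were at least 2-fold higher in AID transgenic than in wild-type mice, Ccl21a and Cxcl13, and 1 was 2-fold lower, Cxcl1. All genes gave 0.308% higher and 0.294% lower, of 14297. In treated liver 2 of 33 (6.06%), Ccl5 and Cxcl13, were higher and none lower, beside 0.732% and 0.761% of 17079 genes. The processed signals gave 4 higher and 1 lower there, with no share of all genes given for that processing. Cxcl13 was in both genotype counts, which use the same probe on the same 2 arrays, so array and genotype cannot be told apart there. With 1 channel of each kind, differences between mice and between genotypes cannot be told apart.

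**Figure D3:**
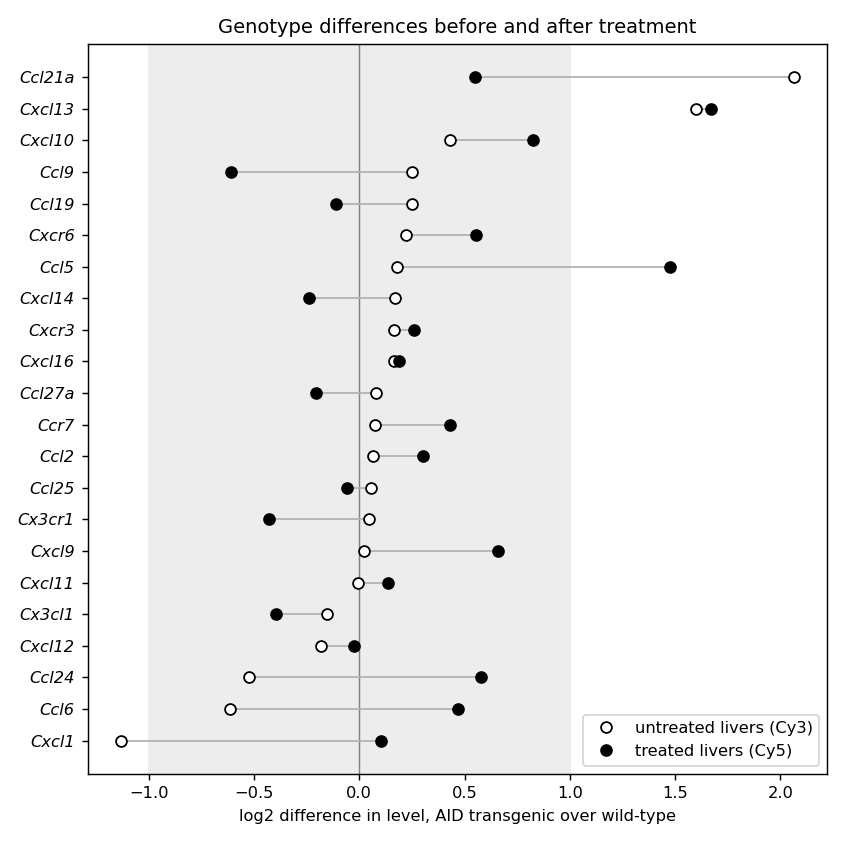
Difference in log2 level, AID transgenic over wild-type (x axis), of the 22 chemokine genes measured in all 4 channels, for untreated (open) and thioacetamide-treated (filled) livers. Grey marks differences under 2-fold, and no error bar is drawn because the spot error belongs to the ratio within an array. Ccl21a and Cxcl1 lie far out untreated (2.06 and -1.13) and near the centre treated (0.55 and 0.10), Ccl5 does the reverse (0.18 and 1.48), and Cxcl13 stays at 1.60 and 1.67.

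The B cell side of this axis was dim. The receptor gene Cxcr5 was measured in treated livers alone, at 6.40 in wild-type and 6.49 in AID transgenic, 1.05-fold and 1.09-fold above its dim signal in untreated liver. Its ratios, 0.07 ± 0.57 and 0.13 ± 0.49, were within the spot error. Of 8 B and plasma cell markers, 3 were measured in untreated livers and none of these differed 2-fold between genotypes, and of 7 measured in treated livers none did. Their summed level was 781 and 940 in wild-type liver and 806 and 1089 in AID transgenic liver, with Pax5 not above background. Cd79b, a part of the B cell receptor, was 2-fold higher after treatment in AID transgenic liver, at 1.12 ± 0.26, and at 0.77 ± 0.25 in wild-type liver. Between the untreated livers the sum, 781 and 806, holds near-background signal of the markers not measured there, so it says little beside Cxcl13. The part of B cells in the Cxcl13 result was not tested.

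The remaining homeostatic chemokines were under 2-fold in all 5 comparisons. Cxcl12, which keeps leukocytes in place through CXCR4, had log2 levels of 11.96 and 11.95 in wild-type and 11.78 and 11.92 in AID transgenic liver. Its 2 probes lay far apart, at 13.61 and 10.31 in untreated wild-type liver, so the mean is the level of neither. They disagreed in ratio on the wild-type array, at -0.36 and 0.34, so the mean of -0.01 ± 0.15 there hides a spread of 0.50 (SD). The AID transgenic ratio was 0.14 ± 0.14. Cxcr4 was measured in treated livers alone, at 6.45 and 6.41.

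Cxcl16 is the membrane-bound ligand of CXCR6, the receptor of T and NKT cells that patrol liver sinusoids. For Cxcl16 the log2 level was 8.08 and 8.42 in wild-type liver and 8.24 and 8.61 in AID transgenic liver. Its ratios were close, 0.35 ± 0.21 and 0.37 ± 0.21. Cxcr6 was at 7.09 in both wild-type livers and at 7.32 and 7.65 in AID transgenic liver, with ratios of -0.00 ± 0.17 and 0.33 ± 0.16.

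Cx3cl1, also membrane-bound, is read by CX3CR1 on patrolling monocytes and on macrophages of the liver capsule. Cx3cl1 had a log2 level of 6.98 and 7.37 in wild-type liver and 6.83 and 6.97 in AID transgenic liver, with ratios of 0.39 ± 0.23 and 0.14 ± 0.26. Cx3cr1 was at 6.49 and 7.12 in wild-type liver and at 6.54 and 6.70 in AID transgenic liver. Ligand and receptor both were highest in treated wild-type liver. The ratio of Cx3cr1 was 0.63 ± 0.30 and 0.16 ± 0.34. Its 2 wild-type values, 0.92 and 0.35, came from a brighter probe and from one dim in Cy3. The processed signals gave 1.75 for Cx3cr1 in wild-type liver.

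Cxcl14, a chemokine of epithelia, had log2 levels of 8.25 and 8.81 in wild-type and 8.42 and 8.58 in AID transgenic liver, with ratios of 0.57 ± 0.21 and 0.16 ± 0.21. Ccl27a, the skin-homing ligand of CCR10, was at 8.95 and 9.17 in wild-type and at 9.03 and 8.96 in AID transgenic liver, as a mean of 4 probes. The probes lay between 7.09 and 10.50 in untreated wild-type liver, so the mean is the level of none. Their wild-type ratios ranged from 0.06 to 0.35. The mean ratios of Ccl27a, 0.22 ± 0.11 and -0.06 ± 0.11, were small beside those of the inflammatory ligands. Ccl27a also lies in the duplicated stretch of chromosome 4, and copies of it may share its signal.

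Several ligand and receptor pairs were scarcely detected. Ccl17, a CCR4 ligand of dendritic cells, was measured in treated wild-type liver alone, at 6.39, at least 1.08-fold above untreated liver. The wild-type ratio of Ccl17, 0.26 ± 0.56, was within the spot error. The second CCR4 ligand, Ccl22, was not well above background in any channel. Neither was Ccl20, the ligand of CCR6, while Ccr6 was measured in treated livers alone, at 6.38 and 6.56. The 5 genes not measured in any channel, Ccl11, Ccl20, Ccl22, Cxcl2 and Ccr1, had spot errors of at least 1.30, wider than any of their ratios, and no difference was detectable for them.

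Receptors were dim, and their count at 2-fold depended on the processing. Of 8 receptors measured on each array none was 2-fold higher or lower, with medians of 0.20 in wild-type and 0.17 in AID transgenic liver. Of the 22 ligands measured on the wild-type array 2 were 2-fold higher, and of the 24 on the AID transgenic array 6 were higher and 1 lower. With the processed signals 4 of 8 receptors were 2-fold higher on each array, Ccr2, Ccr7, Cxcr5 and Cx3cr1 in wild-type and Ccr2, Ccr6, Ccr7 and Cxcr3 in AID transgenic liver. Of these, Ccr2, Cxcr5 and Ccr6 were measured in treated channels alone, so they could hardly appear as lower. The share of all genes under that processing is not given. The ligands then had 6 of 22 and 10 of 24 higher. Of the 9 receptors, 4 were measured in every channel. In the plot against the processed signals, the genes farthest from the diagonal were Ccl2, Ccr7, Cx3cr1 and Cxcr3, whose untreated levels were between 6.49 and 7.13. The offset used in the background correction shrinks the ratios of dim spots by construction.

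**Figure D4:**
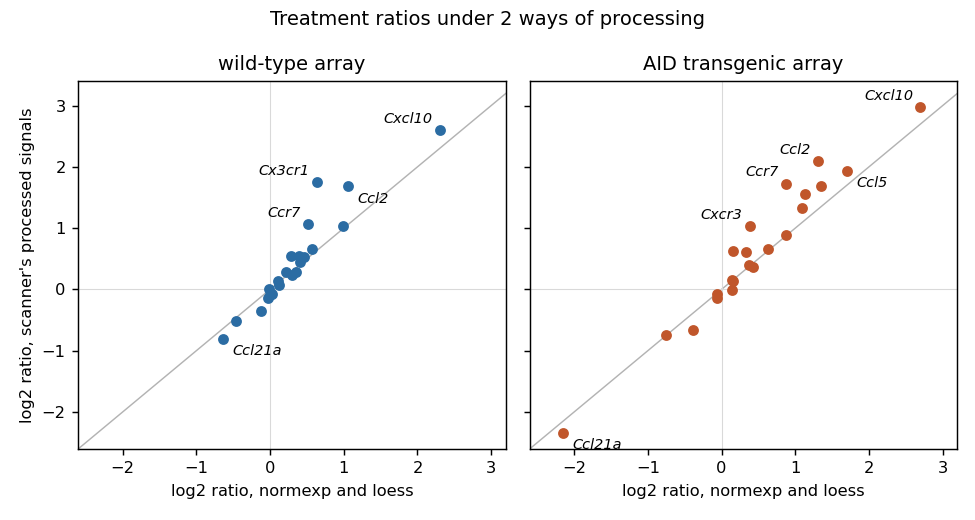
Treatment log2 ratios of the 22 chemokine genes measured in all 4 channels after normexp and loess (x axis) against those from the scanner software's processed signals (y axis), 1 panel per array. The diagonal marks equal values. Ccl2, Ccr7 and, on the wild-type array, Cx3cr1 (0.63 against 1.75) lie above it, while Ccl21a and Cxcl10 keep their places at the ends.

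Genes around the set gave few further differences. Of 18 other chemokine family genes on the arrays, 9 were not well above background in any channel, and none of 8 measured on each array was 2-fold changed by treatment (medians 0.11 and 0.04). Pf4, platelet factor 4, had the highest wild-type ratio of those measured throughout, at 0.42 ± 0.21, and was at -0.20 ± 0.21 in AID transgenic liver.

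The 5 atypical chemokine receptors, which scavenge chemokines without signalling through G proteins, had no member at 2-fold (medians 0.31 and 0.06). Among 17 genes of chemokine receptor signalling, Ptk2b, a focal adhesion family kinase, was 2-fold lower in wild-type liver, at -1.26 ± 0.18, with its 2 probes 1.45 apart by SD. In AID transgenic liver none of the 17 was at 2-fold (median 0.23). Rac2, a GTPase of leukocyte migration, was highest there, at 0.85 ± 0.22, and at 0.13 ± 0.21 in wild-type liver.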

How the data were processed

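Liver RNA was measured on 2 Agilent 2-colour arrays, 1 per genotype, on the same slide and scan. The authors deposited the scanner output of Agilent Feature Extraction. The file headers give its version as 10.7.3.1, whereas the submitters' processing notes name 10.5.1.1. Per the file headers, mean signals and background medians are raw intensity values, and background subtraction and dye normalization by the scanner software had made the processed intensity values. The spot's log10 ratio and its log10 error are also deposited, and the error was turned into the log2 values printed after ±. For a gene with several probes, it is the root of the summed squared errors over the number of probes. The deposited value table matched the scanner's log10 ratio, Cy5 over Cy3, exactly for each of 44397 features, and its columns had a median of 0, so its scale and direction are known. The deposited error is a score of the software's error model, and flags mark spots well above background or saturated.

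From these, log2 ratios were computed with limma 3.58.1 in R 4.3.3, by normexp background correction with an offset of 50 and loess within each array, with control and outlier spots at weight 0 and then left out. Outliers numbered 197 (wild-type) and 207 (AID transgenic). Channel levels were made comparable between the arrays by Aquantile normalization. On simulated arrays the offset shrank known log2 differences somewhat. Spots of a probe and then probes of a gene were averaged. A probe counted as well above background when at least 50% of its spots did. Probes were named by chemokine symbol (48), by accession (26009), by symbol (3193) or by synonym (930) through a RefSeq table, and 9249 stayed unnamed. In the chemokine set, 2 synonyms that are symbols of other genes were not used. Probe positions are those of the files, on mm9. Promoter motifs were first searched in longer forms and then, after those results were seen, in the shorter cores given.

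With 1 array per genotype no test was possible, and genes were counted at 2-fold when a probe was well above background in at least 1 channel value that entered. The chemokine set and the 17 lists set beside it were chosen with earlier results of these data known. Levels in every channel are given for each chemokine gene that was 2-fold in a comparison or well above background in all 4 channels, and of each list the highest and lowest genes, or those at 2-fold, were eligible to be named. Mpo, Ncr1, Pax5, Cd3e, Siglech, Csf1r, Ccl21b and the sex-linked genes were named after their values were seen. Other background corrections, centring, filters, probe rules, a 1.5-fold threshold and, for genotype comparisons, scaling to the 75th percentile were tried. The number of arrays limits the precision of every value. Some results on single genes are not reported here.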

Additional observations from a re-analysis of the deposited data

Results flagged for a closer look

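Ccl6, a myeloid chemokine of rodents, stood out because its treatment ratio had opposite signs on the 2 arrays. Its log2 ratio was -0.46 in wild-type and 0.63 in AID transgenic liver, from 1 array each. The difference was not tested, since neither genotype had a second array. Centring each array on its median in place of loess gave 0.21 and 1.28. That centring also raised the median of all genes, given below, and the wild-type value of Ccl6 stayed under it. The processed signals gave -0.52 and 0.66, again of opposite sign. The gap between the arrays was 1.07 with median centring and 1.18 with the processed signals.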

How the results depend on the processing

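Several counts and medians of the chemokine set moved under the alternatives run. A change of direction was flagged only for medians of at least 2-fold, and no median was that large, so none could be flagged. With no offset in the background correction, 6 genes were 2-fold higher in wild-type liver and 3 lower in the difference between arrays. The processed signals gave 10 higher and a median of 0.53 in wild-type liver, 14 higher, 2 lower and a median of 0.68 in AID transgenic liver, 4 lower in the difference, and 4 higher and 1 lower between treated livers. Centring on the median gave 5 higher and a median of 0.64 in wild-type liver, and 11 higher and a median of 0.52 in AID transgenic liver, while it also moved the medians of all genes to 0.35 and 0.34. A 1.5-fold threshold gave 5 higher and 1 lower in wild-type, 11 and 2 in AID transgenic liver, 3 lower in the difference, 2 lower between untreated livers, and 4 higher and 1 lower between treated livers. Requiring every channel value to be well above background, taking the brightest probe, or scaling to the 75th percentile moved none of these counts beyond 1.5 times. For the 22 genes measured in every channel, 185 alternative values could not differ by construction. Of the other 409, 329 moved by less than the spot error, 80 by more, and 390 kept their sign. The shares of all genes at 2-fold under these alternatives are not given, and the cause of these shifts was not tested. Dim spots limit the rest: 16 of the 38 genes were not measured in all 4 channels.

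No paired analysis was possible because there was 1 array per genotype, and for the same reason leaving out an array was not run.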

Other observations

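Marker lists of liver cell types that no chemokine result was set beside gave these values. Of 6 hepatocyte markers, 2 were 2-fold lower after treatment in wild-type liver and 3 in AID transgenic liver (medians -0.94 and -1.13). Of 6 stellate cell markers none was 2-fold changed in wild-type liver, and 1 was lower in AID transgenic liver. None of the measured genes among 7 sinusoidal and vascular endothelial markers and 5 cholangiocyte markers was 2-fold changed by treatment in either genotype.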
